A study of Mus with 4 samples.

Results

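The genes of the MAP kinase cascade and of the dual-specificity phosphatases were examined in m6A peak lists of interscapular brown adipose tissue (iBAT), the main brown fat depot of the mouse. Members were all gene symbols made of Mapk, Map2k, Map3k, Map4k, Mapkapk or Dusp and digits alone, a rule that uses names and no measured value. It gave 51 genes, 35 kinases and 16 Dusp phosphatases, of 10105 gene symbols that carried any peak. They carried 97 of the 18400 peaks of *Wtap* flox/flox mice, the control list, and 81 of the 18693 peaks of *Wtap*-BKO mice, the BKO list. A mouse RefSeq gene table of GRCm38.p6 holds 70 symbols of this form. The other 19 had no listed peak in the files used here, among them *Mapk8* and *Mapk10* of the JNK kinases, *Mapk13* of the p38 kinases, and *Dusp2* and *Dusp9*.

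Each list came from 1 m6A immunoprecipitate (IP) and 1 input of iBAT, each pooled from 8 C57BL/6 mice at 8 weeks of age on normal chow. In the *Wtap*-BKO mice both floxed copies of *Wtap*, which encodes a subunit of the m6A writer complex, were exposed to Cre recombinase made from the *Ucp1* locus (*Ucp1*-iCre). The control mice (*Wtap* flox/flox) carried the same floxed alleles (exon 4 flanked by loxP sites) without Cre. Cre from *Ucp1* acts in brown adipocytes, so immune, stromal, vascular and any muscle cells in the pooled tissue kept *Wtap* in both groups. A peak is a part of a transcript that was enriched in the IP over the input, and the authors listed peaks with a false discovery rate (FDR) under 0.05. With 1 pooled sample per group the spread between mice is unknown, so genotypes are compared here without a test. *Wtap* itself had 4 peaks in each list, and a peak on its transcript does not check the deletion. The 95% Wilson intervals given for shares of peaks take each peak as independent and hold counting error alone.

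MAP kinase cascades are relays in which a Map3k phosphorylates a Map2k, which in turn phosphorylates a MAP kinase. Map4k kinases act above the relay, and the Mapkapk kinases are substrates of the MAP kinases. Dual-specificity phosphatases of the MKP type remove phosphate from the activation loop of the MAP kinases, and several of them are transcribed rapidly when the cascade is active. In brown adipocytes p38 acts downstream of β-adrenergic signalling on thermogenic genes such as *Ucp1*. N6-methyladenosine (m6A) is a mark on mRNA that reader proteins recognise and that can change how long a transcript lasts.

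Of the 51 genes, 39 had peaks in both lists, 10 only in the control list and 2 only in the BKO list. The genes listed only in control make up 19.6% of the members, against 13.5% of all gene symbols. Those listed only in BKO make up 3.92%, against 13.2% of all gene symbols. The 10 genes listed only in control were *Map4k2*, *Map4k3*, *Map3k2*, *Map3k8*, *Map2k2*, *Map2k6*, *Mapk11*, *Dusp18*, *Dusp19* and *Dusp28*, and the 2 listed only in BKO were *Map4k1* and *Map4k5*. In bulk tissue, fewer cells of a type and less RNA per cell cannot be told apart, and an unlisted peak is one that did not reach the authors' threshold. The read totals behind the lists are unknown.

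**Figure D1:**
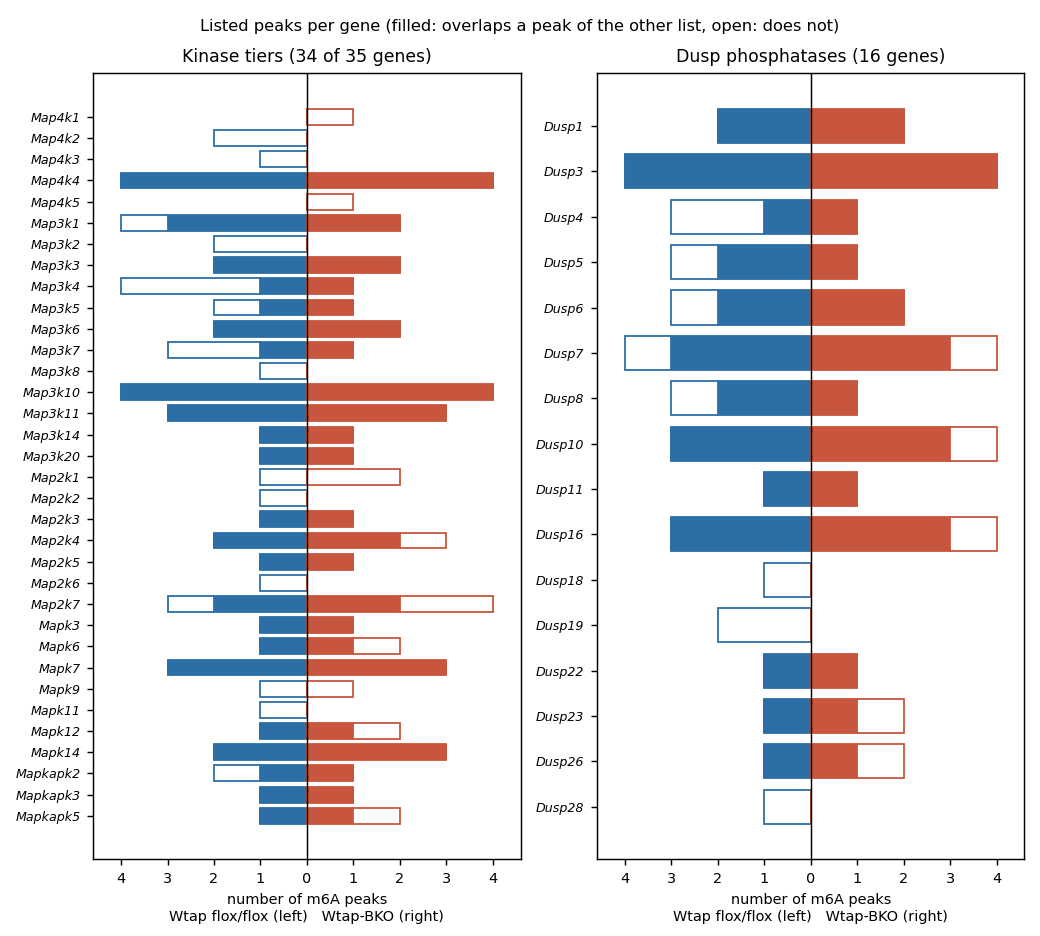
Number of listed m6A peaks for 34 of the 35 kinase genes (left panel) and 16 Dusp genes (right panel), with control (Wtap flox/flox) peaks drawn to the left of 0 and BKO peaks to the right. Filled bars are peaks that share at least 1 exonic base with a peak of the other list and open bars are peaks that do not. The Map3k genes show no open bar on the BKO side, while Map3k4 has 3 open peaks on the control side.

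The same was asked peak by peak. A peak counted as matched if it had 1 or more exonic bases in common with a peak of the other list on its strand. In the control list, 30 of 97 member peaks had no BKO peak on them (30.9%, 95% interval 22.6% to 40.7%), and the share over all control peaks was 32.2%. In the BKO list, 16 of 81 member peaks had no control peak on them (19.8%, 12.5% to 29.7%), and the share over all BKO peaks was 32.0%. The first share lay near the background and the second lay below it, with an interval that did not reach it.

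Strong peaks were matched more often. Of the 73 control member peaks with an FDR under 1e-05, 14 had no counterpart (19.2%), beside 20.4% of all such control peaks. Of the 52 BKO member peaks that strong, 2 had none (3.85%, 1.06% to 13.0%), beside 15.4% of all such BKO peaks. These 2 peaks were on *Mapk9* (log10 FDR of -6.68) and *Dusp23* (-5.26), not far beyond the limit of the class. Counted by gene, 23 of the 49 members in the control list carried an unmatched peak there (46.9%), beside 45.7% of all its genes. In the BKO list it was 14 of 41 members (34.1%), beside 47.5% of all its genes.

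**Figure D2:**
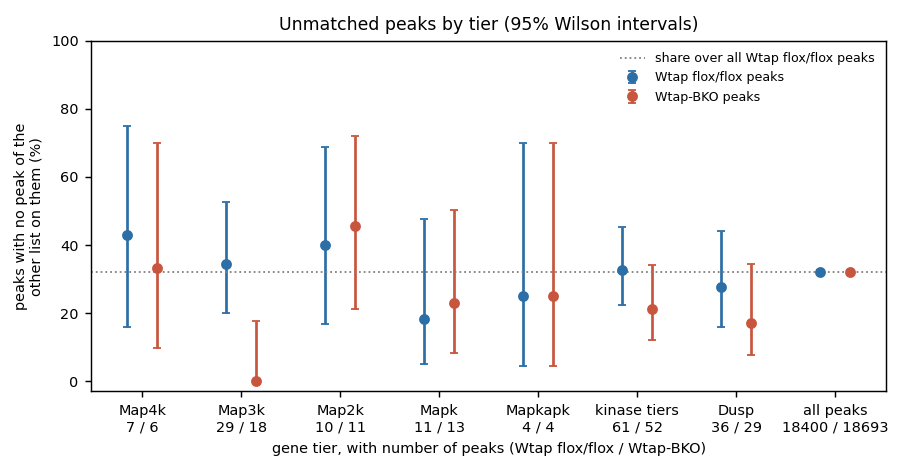
Share of peaks (in %) with no peak of the other list on them, by gene tier, for the control (Wtap flox/flox) list (blue) and the BKO list (red), with 95% Wilson intervals as bars and the numbers of peaks under each tier. The dotted line is the share over all 18400 control peaks (32.2%). The intervals of the control shares include the dotted line in every tier. In the BKO list the Map3k share is 0 of 18 peaks and the Map2k share 5 of 11.

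The members' peaks were shorter in BKO, as were those of the whole list. The median length was 271 bases in control and 240 in BKO for the members, and 240 and 210 for all peaks. The 97 control peaks covered 29052 exonic bases, of which 60.2% lay under a BKO peak, close to the 61.4% over all control peaks. The 81 BKO peaks covered 22442 bases, of which 78.0% lay under a control peak, against 67.7% over all BKO peaks. For kinases and phosphatases the first share was 61.4% and 58.1% and the second 75.9% and 82.0%. Spliced peaks, those with more than 1 block, made up 7 of 61 kinase peaks in control and 12 of 52 in BKO, and 3 of 36 and 2 of 29 Dusp peaks. For the kinases these are 11.5% and 23.1%, beside 15.4% and 19.8% of all peaks.

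To compare the strength of a peak with that of its counterpart, each was ranked by FDR within its own list, because the fold enrichments and FDRs of the lists share no common scale. A value of 90% then means that the peak was stronger than 90% of its list. An FDR rank depends both on the share of transcripts that were methylated and on how much of the transcript was present, and these cannot be told apart in a peak list. Of the 67 control member peaks with a BKO peak on them, 40 ranked higher in their list than the BKO peak sharing most bases did in its own (59.7%, 47.7% to 70.6%). Over all 12483 such pairs the share was 44.0%. Ranked by fold enrichment instead, it was 47 of 67 (70.1%), beside 49.1% of all pairs. A gap of more than 30 percentage points in favour of control occurred in 12 pairs (17.9%), beside 8.85% of all pairs, and in favour of BKO in 7 pairs (10.4%), beside 13.2% of all pairs. Of these, the kinase tiers gave 6 and 4 and the Dusp genes 6 and 3.

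**Figure D3:**
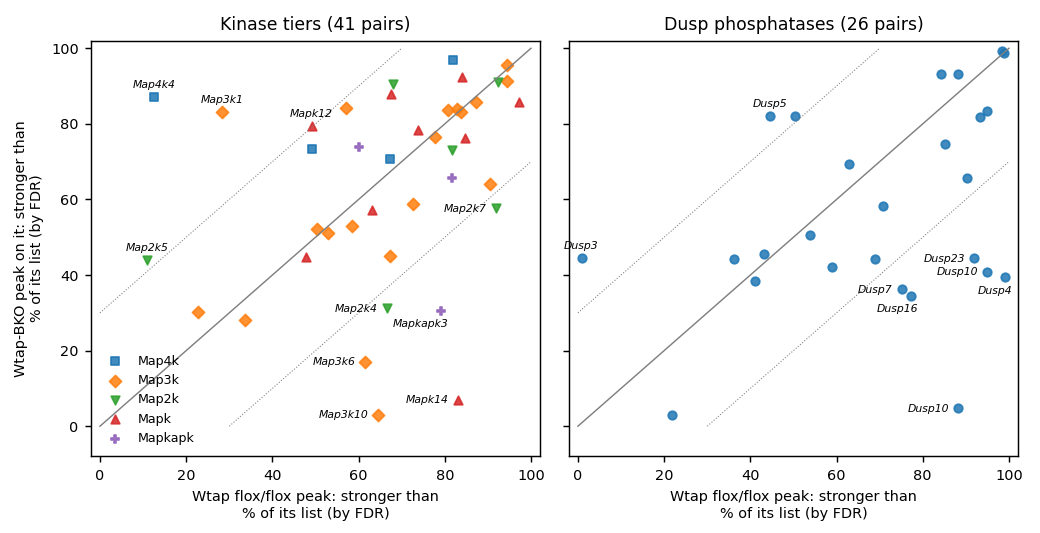
Strength of each control (Wtap flox/flox) peak (horizontal axis) and of the BKO peak sharing most bases with it (vertical axis), both as the percentage of their own list with a weaker FDR, for 41 pairs of the kinase tiers (left) and 26 pairs of the Dusp genes (right). The solid line marks equal rank and the dotted lines a gap of 30 percentage points, and genes beyond a dotted line are named (Dusp5 once for its 2 pairs). Dusp4, Dusp10, Dusp23, Mapk14, Map3k10 and Mapkapk3 are among the genes far below the solid line. Map4k4, Map3k1, Map2k5, Dusp3 and Dusp5 are among those far above it.

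The Map4k tier, the kinases at the top, gave 7 control and 6 BKO peaks on 5 genes, and only *Map4k4* had peaks in both lists. *Map4k4*, a kinase upstream of JNK, carried 4 peaks in each list, and every one was found in the other. In order along the gene, the control peaks were stronger than 49.3%, 82.0%, 12.6% and 67.3% of their list, and their BKO counterparts than 73.4%, 97.0%, 87.1% and 70.7% of the BKO list. All 4 pairs thus ranked higher in BKO, the widest gap being that of the spliced peak at chr1:40011725-40013914, whose log10 FDR was -2.70 in control and -30.0 in BKO.

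The Map4k genes listed in 1 genotype had weak peaks. *Map4k2* had 2 control peaks, stronger than 26.5% and 16.5% of their list, and *Map4k3* had 1 at its 5ʹ end (42.5%). *Map4k5* had 1 BKO peak, stronger than 4.54% of its list. *Map4k1*, which is known for its expression in blood cells, had 1 BKO peak of 120 bases (3.08%). Beside *Map4k1* stand the markers of other cells in the tissue. Of 12 macrophage markers, 11 had a peak, 8 in both lists and 3 only in BKO, with 13 peaks in control and 26 in BKO. Of 12 lymphocyte markers, 7 had a peak, 4 in both lists and 3 only in BKO, with 5 and 11 peaks, while the T cell genes *Cd3e* and *Cd3d* and the B cell genes *Cd79a* and *Ms4a1* had no listed peak. The part of these cells in the *Map4k1* peak was not tested. Of 12 brown adipocyte markers, all had a peak, 11 in both lists, with 33 and 30 peaks.

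The Map3k tier was the largest of the kinases, with 29 control and 18 BKO peaks on 12 genes. Each of the 18 BKO peaks was found in the control list. A count of 0 of 18, on 10 genes, allows a share of unmatched peaks of up to 16.7%, against the 32.0% of all BKO peaks. This was the lowest such share of any tier, and that of the Map2k tier was the highest (45.5%). In the other direction 10 of the 29 control peaks had no counterpart (34.5%, 19.9% to 52.7%), beside 32.2% of all control peaks. By gene, 6 of the 12 had such a peak (50%), beside 45.7% of all genes in the control list.

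*Map3k4* (MEKK4), which feeds the p38 and JNK branches, had the most of them. Its 4 control peaks were stronger than 61.6%, 59.7%, 55.0% and 67.3% of their list, and only the last had a BKO peak on it (45.0%). The strongest of the 3 without a counterpart lay at chr17:12227771-12229526, with its centre 330 bp from the 3ʹ end of the gene. *Map3k7* (TAK1), which relays TGFβ and interleukin signals, had 3 control peaks, and those at either end of the gene (13.9% and 36.0%) had no counterpart. Its middle peak was stronger than 90.6% of the control list and its counterpart than 64.0% of the BKO list.

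*Map3k2* and *Map3k8* were listed only in control. *Map3k2* (MEKK2) had peaks stronger than 51.3% and 19.9% of the list, and *Map3k8* (TPL2), a kinase of innate immune signalling, had 1 weak peak (9.70%). *Map3k5* (ASK1), a sensor of oxidative stress, ranked alike at its strong peak near the gene end (77.8% and 76.5%), and its weaker 5ʹ peak (37.8%) was in the control list alone. *Map3k6* (ASK2), its partner, had 2 matched peaks that went opposite ways, from 61.4% in control to 17.1% in BKO for the 5ʹ one and from 57.1% to 84.1% for the one at the gene end.

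Other Map3k genes had peaks of similar rank in both lists. *Map3k11* (MLK3) had 3 peaks in each list, stronger than 80.8%, 82.9% and 94.5% in control and 83.8%, 84.0% and 95.5% in BKO. The last of these, at chr19:5700839-5702653, was the strongest Map3k peak in both lists, with a log10 FDR of -85.7 and -67.0. *Map3k3* (MEKK3) likewise had 2 pairs within 6 percentage points of each other, at 94.4% and 91.4% and at 58.5% and 53.1%. *Map3k20* (ZAK), which responds to stalled ribosomes, had 1 peak with the same start and end in both lists (52.9% and 51.2%). *Map3k14* (NIK), a kinase of the non-canonical NF-κB pathway, had 1 weaker pair near the gene end (33.7% and 28.1%).

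*Map3k10* (MLK2), a relative of *Map3k11*, had 4 matched peaks. Of the 2 at the 5ʹ end, 1 differed little (50.4% and 52.2%) and 1 more (72.6% and 58.7%), and the middle one was weak in both lists (22.7% and 30.3%). Its gene-end peak was stronger than 64.5% of the control list and than 3.08% of the BKO list, and a peak of *Ttc9b* is listed there on the opposite strand. *Map3k1* (MEKK1) had 4 control peaks and 2 BKO peaks. A pair of neighbouring control peaks, stronger than 28.3% and 83.8% of the list, lay under 1 BKO peak (83.1%), so both are set against that single BKO peak in the plot of paired strengths.

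The Map2k tier, the kinases in the middle of the relay, had 10 control and 11 BKO peaks on 7 genes. Of the 11 BKO peaks 5 had no counterpart (45.5%, 21.3% to 72%), beside 32.0% of all BKO peaks. Of the 10 control peaks 4 had none (40%, 16.8% to 68.7%), beside 32.2% of all control peaks. The kinases of this tier that act on ERK had no base listed in both genotypes. *Map2k1* (MEK1) had 1 control peak at chr9:64186394-64186513, 685 bp from the gene's 3ʹ end (29.2%), and 2 weak BKO peaks, 1 at the 5ʹ end (11.8%) and 1 spliced peak centred 28784 bp from the 3ʹ end (17.4%). *Map2k2* (MEK2) had 1 control peak at chr10:81123702-81123912, 890 bp from the 3ʹ end, and no BKO peak. With a log10 FDR of -21.3 and a rank above 74.5% of the list, it was the strongest of the 30 member peaks with no counterpart.

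The p38 kinases of the tier gave 1 gene in each state. *Map2k3* had 1 peak near the gene end in both lists (81.6% and 73.0%), and *Map2k6* had 1 control peak (36.0%) and none in BKO. Of the JNK kinases, *Map2k4* had a strong pair at chr11:65690126-65690784 in control (92.3% and 91.1%) and a weaker pair beside it (66.5% and 31.2%). *Map2k7* had a pair that ranked lower in BKO (91.9% and 57.7%) next to one that ranked higher (67.9% and 90.5%). Weak BKO peaks of *Map2k4* (15.2%) and *Map2k7* (10.6% and 13.6%) had no counterpart, nor had a control peak of *Map2k7* (42.0%). *Map2k7* is listed under 2 Ensembl identifiers (ENSMUSG00000002948 and ENSMUSG00000109061) whose peaks share bases, so reads of this region may count for either. *Map2k5*, the kinase of ERK5, had 1 weak pair (10.9% and 44.0%).

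The MAP kinases themselves had 11 control and 13 BKO peaks on 8 genes, and 7 of the 8 were in both lists. *Mapk3* (ERK1), a kinase of the growth factor branch, had 1 peak at the very 5ʹ end of the gene in both lists, centred 139 bp from it in control. It was stronger than 67.5% of the control and 88.0% of the BKO list. *Mapk7* (ERK5) had 3 peaks in each list, all matched, at 73.7%, 63.2% and 47.7% in control and 78.4%, 57.2% and 44.7% in BKO, differences of at most 6 percentage points. *Mapk6* (ERK3), an atypical MAP kinase, carried the strongest BKO peak of this tier, at chr9:75397730-75398208 (84.1% and 92.4%).

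Of the 4 control peaks of the p38 kinases 3 were centred within 1000 bp of the 3ʹ end, and the fourth lay 1031 bp from it. *Mapk14* (p38α), the main p38 kinase of most tissues, had 2 strong peaks in control. The first, at chr17:28747209-28747538, had a log10 FDR of -142 in control and -27.7 in BKO (97.3% and 85.9%). The second, at chr17:28747837-28748344, was stronger than 83.0% of the control list, and 2 short BKO peaks of 121 and 91 bases lay on it, stronger than 7.03% and 18.6% of theirs. The listed region on *Mapk14* covered 838 bases in control and 512 in BKO, all of the latter shared.

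*Mapk12* (p38γ), known for its high level in skeletal muscle, went the other way. Its gene-end peak was stronger than 49.1% of the control list and 79.5% of the BKO list, and a second peak, 1084 bp from the 5ʹ end, was listed in BKO alone (39.8%). Of 10 skeletal muscle markers 9 had a peak, 4 in both lists and 5 only in BKO, with 4 peaks in control and 13 in BKO, and their part in the *Mapk12* peaks was not tested. *Mapk11* (p38β) had 1 weak control peak (5.06%). *Mapk9*, the JNK gene with peaks, had 1 in each list with no shared base, a control peak at chr11:49883254-49883523 (57.4%) and a spliced BKO peak upstream of it (51.8%).

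The Mapkapk kinases, which act below p38 and ERK3, had 4 peaks in each list on 3 genes. *Mapkapk2* (MK2), a p38 target that controls unstable mRNAs, had a 5ʹ peak in both lists (81.6% and 65.6%) and a weaker peak near the gene end in control alone (36.9%). *Mapkapk3* (MK3), its close relative, had 1 pair with a wide gap (79.2% and 30.6%). *Mapkapk5* had a 5ʹ peak in both lists (60.1% and 74.0%) that shares bases with peaks listed for *Adam1a* and *Gm42878*, so its reads cannot be given to 1 gene.

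The Dusp genes carried 36 control and 29 BKO peaks. In control 10 of 36 had no counterpart (27.8%, 15.8% to 44.0%), and in BKO 5 of 29 had none (17.2%, 7.60% to 34.5%). Both shares overlap those of the kinases, 20 of 61 (32.8%, 22.3% to 45.3%) and 11 of 52 (21.2%, 12.2% to 34.0%). Over all peaks the shares were 32.2% in control and 32.0% in BKO. Taken apart, neither the Dusp genes nor the kinases had an interval that excluded these values. Of the 26 Dusp pairs, 17 ranked higher in control (65.4%, 46.2% to 80.6%), and of the 41 kinase pairs 23 did (56.1%, 41.0% to 70.1%), again with overlapping intervals. The share over all pairs, 44.0%, lay inside the kinase interval and just below the Dusp interval.

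The nuclear, inducible MKPs *Dusp1*, *Dusp4* and *Dusp5*, products of immediate early genes, had 8 control and 4 BKO peaks, and they did not move together. Of their 5 pairs 1 ranked higher in control, by FDR and by fold enrichment alike. *Dusp1* had the strongest BKO peak of all members, at chr17:26505830-26506549, with a log10 FDR of -250, and the control peak inside it had -209 (98.5% and 99.4%). Its 5ʹ peak had the same start and end in both lists (84.3% and 93.1%). *Dusp5* ranked higher in BKO, where 1 peak of 924 bases reached past the end of the gene (82.0%) and covered 2 shorter control peaks (44.5% and 50.4%).

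*Dusp4* was the opposite case and held the strongest control peak of all members. That peak, at chr8:34818703-34819179, was 477 bases long, had a log10 FDR of -289 and an 8.64-fold enrichment over input, and was stronger than 99.0% of its list. On it lay a single BKO peak of 120 bases with a log10 FDR of -4.73 and a 1.37-fold enrichment, stronger than 39.4% of its list. The other 2 control peaks of *Dusp4*, 1 at the 5ʹ end (73.3%) and 1 spliced peak before the strong one (54.6%), had no counterpart. In all, 120 of the 836 bases listed for *Dusp4* in control were also listed in BKO.

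**Figure D4:**
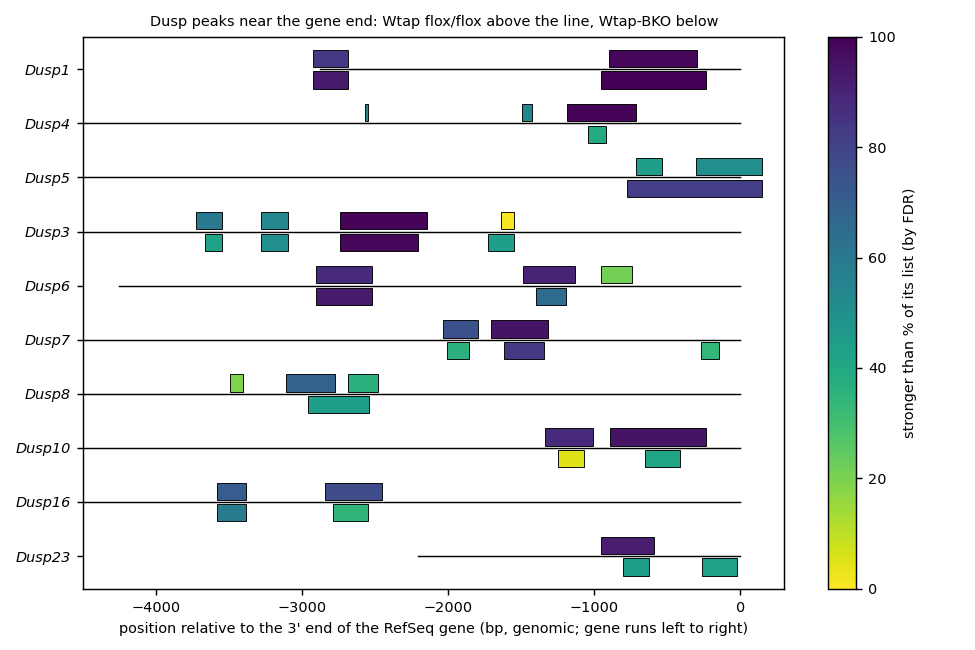
Listed peak blocks of 10 Dusp genes relative to the 3ʹ end of the gene in the RefSeq table (in bp along the genome, gene running left to right, the last 4500 bp shown), with control (Wtap flox/flox) above each line and BKO below. The colour gives the percentage of the peak's own list with a weaker FDR. Dark blocks stand in both rows for Dusp1, Dusp3 and Dusp7, whereas Dusp4, Dusp10 and Dusp23 have dark blocks above and shorter, paler ones below.

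The cytoplasmic, ERK-specific *Dusp6* and *Dusp7* had 7 control and 6 BKO peaks, and 3 of their 5 pairs ranked higher in control. *Dusp6*, a feedback inhibitor of ERK, had a peak at chr10:99264579-99264967 with identical limits in both lists (88.1% and 93.2%), while its next peak downstream was stronger than 90.3% of the control list and 65.6% of the BKO list. Another, weak peak nearer the gene end (21.1%) was in control only. *Dusp7* had a neighbouring pair of peaks with the same tendency, from 95% to 83.5% and from 75.1% to 36.3%, and a 5ʹ pair of nearly equal rank (43.1% and 45.5%). Each list also held 1 *Dusp7* peak without a counterpart, that of BKO at the gene end (34.1%).

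The MKPs that act on JNK and p38, *Dusp8*, *Dusp10* and *Dusp16*, had 9 peaks in each list. Of their 8 pairs 6 ranked higher in control by FDR and all 8 by fold enrichment, beside 44.0% and 49.1% of all pairs. *Dusp10* had the widest gaps of this group. Its 2 peaks near the gene end, at chr1:184074294-184074622 and chr1:184074742-184075397, were stronger than 88.2% and 95% of the control list, and their BKO counterparts than 4.85% and 40.9% of the BKO list. The log10 FDR was -46.1 and -93.2 in control and -2.05 and -4.91 in BKO. The *Dusp10* peak in the 5ʹ part, at chr1:184036899-184037644, had a high rank in both lists (93.3% and 81.7%).

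*Dusp16* showed the same order on a smaller scale, with pairs at 77.2% and 34.4% and at 70.8% and 58.4% toward the gene end, and a middle pair that ranked slightly higher in BKO (62.9% and 69.4%). *Dusp8* had 2 control peaks (36.3% and 69.0%) under 1 BKO peak (44.3%). *Dusp10* and *Dusp16* each had 1 weak peak in BKO alone (19.7% and 22.6%).

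The remaining 8 Dusp genes, the atypical members, had 12 control and 10 BKO peaks. Of their 8 pairs 7 ranked higher in control, beside 44.0% of all pairs. *Dusp3* had 4 matched peaks in each list, and its main one, at chr11:101973290-101973886, was stronger than 98.9% of the control and 98.8% of the BKO list. The weakest of the 4 was the exception in rank, at 0.837% and 44.4%. *Dusp23* had a peak stronger than 92.0% of the control list, at chr1:172631364-172631723, and its counterpart was stronger than 44.4% of the BKO list. A further BKO peak of *Dusp23* nearer the gene end (43.4%) had no counterpart.

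*Dusp11*, which acts on RNA rather than on protein, had 1 pair (85.2% and 74.8%), and *Dusp22* had 1 pair of nearly equal rank (41.0% and 38.5%). *Dusp26* had a weak pair (21.9% and 3.08%) and 1 weak BKO peak (5.63%). The 3 listed only in control were *Dusp18* (21.2%), *Dusp19* (10.9% and 49.7%) and *Dusp28* (48.2%).

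Along the genes, member peaks were placed much like all peaks. Among peaks in genes of at least 3000 bp, 22 of 92 control member peaks were centred within 1000 bp of the 3ʹ end (23.9%, 16.4% to 33.6%), beside 21.7% of all such peaks, and 15 of 77 BKO member peaks were (19.5%, 12.2% to 29.7%), beside 19.3%. At the 5ʹ end the counts were 14 of 92 (15.2%, beside 11.4% of all) and 11 of 77 (14.3%, beside 13.1%). The distances are genomic, so an intron between a peak and the gene end lengthens them. Of the 22 control member peaks at the 3ʹ end 8 had no counterpart, of the 14 at the 5ʹ end 6, and of the 56 elsewhere 14. These are 36.4%, 42.9% and 25.0%, beside 37.9%, 28.9% and 29.4% of all control peaks so placed, and the interval of each member share includes the value of all peaks. Of the 15 BKO member peaks at the 3ʹ end, 1 had none, that of *Dusp7* (6.67%, 1.19% to 29.8%), beside 30.3% of all BKO peaks there. In paired peaks, the control peak ranked higher in 9 of 14 pairs at the 3ʹ end, 27 of 42 elsewhere and 3 of 8 at the 5ʹ end. Over all peaks these shares were 48.9%, 45.6% and 29.0%.

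Other genes of the same pathways were taken from a list of 78 genes, from RAS and its exchange factors to the transcription factors that ERK, JNK and p38 phosphorylate. Of these, 63 had a peak. The genotypes shared 52 of them, while 5 were found just in the control list and 6 just in the BKO list. Over all gene symbols with a peak these shares were larger, 13.5% only in control and 13.2% only in BKO. They held 121 control peaks, of which 27 had no counterpart (22.3%, 15.8% to 30.5%), a lower share than the 32.2% of all control peaks. Of their 137 BKO peaks a larger share than this 22.3% had no counterpart. This is the reverse of the members' order, 30.9% in control and 19.8% in BKO. The BKO share of these related genes was still below the 32.0% of all BKO peaks. No interval is given for it, so whether the low BKO share of the members extends to them was not settled. The transcription factors were listed in both genotypes throughout, 13 of 14 genes with 27 and 34 peaks, *Elk1* having no listed peak. Of their 27 control peaks 1 had no counterpart, and in BKO *Creb1*, *Mef2a*, *Mef2c* and *Mef2d* each had unmatched peaks. *Jun* and *Egr1* had peaks with an FDR of 0 in both lists. All 7 downstream kinases with a peak, of the *Rps6ka* and *Mknk* families, were in both lists. Among RAS and RAF genes, *Araf* and *Nras* were listed only in control and *Rras2* only in BKO.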

How the data were processed

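RNA of iBAT from *Wtap* flox/flox (control) and from *Wtap*-BKO (BKO) mice, 1 IP and 1 input of 8 pooled mice each, was read in 150 bp pairs. Per the labels, fastp 0.19.11, BWA 0.7.12, HOMER 4.9.1 and GRCm38.p6 were used, with no role given. The methods name MACS2, while the layout of the lists is that of exomePeak. The authors called peaks in each genotype and deposited for every peak a p-value, 2 log10 scores (p-value, FDR) and the fold enrichment, a ratio of IP over input. Depth is unknown and no strand setting is stated.

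Peaks were matched in Python 3.11.15 (numpy 2.4.6, scipy 1.17.1, matplotlib 3.10.9) if 1 or more exonic bases coincided on 1 strand. A gene symbol was given for 17117 of 18400 control and 17461 of 18693 BKO peaks. The matching was tested on simulated data. The printed starts count from 1. With 1 sample per group no test was made. Members, lists and settings were chosen with earlier results of these data known. Named by rule were genes in 1 list only and, per tier, those with the most control peaks or the strongest matched or unmatched peaks. The other members were named after their values were seen. Alternatives were another overlap, the same gene, an FDR under 1e-05, other windows, shared bases left out, fold ranks and reverse pairing, the last 2 chosen after seeing the data. UTRs, stop codons and motifs were not analysed here, and the values of 1 kinase member are not reported here by themselves.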

Additional observations from a re-analysis of the deposited data

How the results depend on the processing

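Of 48 alternative values, 27 were classed as the same as the value reported and 21 as moved. For shares this means inside or outside the interval of the value reported. The counts of members listed in 1 list only have no interval. No paired analysis was possible because each genotype had 1 pooled sample, and no replicate could be left out. With at least 50% of a peak's bases required, the unmatched share of control member peaks was 42.3%, and 45.9% for the kinases. With any peak on the same gene accepted, the unmatched shares were 13.4% of all member peaks, 14.8% of kinase and 11.1% of Dusp peaks in control. In BKO they were 2.47%, 3.85% and 0% (0 of 29 peaks, which allows a share of up to 10.3%). For peaks with an FDR under 1e-05 searched among all peaks, they were 19.2%, 21.7% and 14.8% in control and 3.85%, 2.94% and 5.56% in BKO. With this limit in both lists, the BKO shares were 9.62% of all member and 8.82% of kinase peaks, and the number of members listed only in BKO was 1. Under the same limit the control share was 34.2%. The number of members listed only in BKO was 3 when symbols with letters after the digits were added. It was also 3 when peaks sharing bases with another gene were left out. Within 500 bp or 2000 bp of the 3ʹ end lay 10.9% or 41.3% of control and 11.7% or 37.7% of BKO member peaks. The lower unmatched share of members in BKO than in control held under all of these overlap and FDR rules. For peaks with an FDR under 1e-05 searched among all peaks, the whole lists had the same order (20.4% in control and 15.4% in BKO). For the other alternatives no share over all peaks is given here, so members cannot be set beside all peaks there. The share of pairs ranked higher in control was 59.7% by FDR, 70.1% by fold enrichment and 63.1% when each BKO peak was paired with a control peak, the last 2 chosen after seeing the data. Unknown depth limits what a missing peak can show.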

Other observations

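Proteins that bind MAP kinases have symbols of similar form, with letters after the digits, and were left out by the naming rule. *Mapk8ip3* (JIP3), a JNK scaffold, had 5 control and 4 BKO peaks. Its strongest control peak, at chr17:24895877-24896326 with a log10 FDR of -152, was stronger than 97.6% of the list and had no BKO peak on it, a higher rank than any unmatched peak of the 51 members. The strongest BKO peak of *Mapk8ip3* was stronger than 67.7% of its list. *Mapk1ip1* had 3 control peaks, stronger than 98.3%, 96.5% and 47.3% of the list. The BKO peaks on the first and second were stronger than 90.7% and 46.2% of theirs, and the last had none. *Mapk1ip1l* had 2 and 3 peaks, of which both control peaks were matched (76.6% and 76.2%, 68.1% and 50.4%). *Mapk8ip1* had 1 weak BKO peak (11.9%).

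Among other regulators of the pathway, *Taok1*, a kinase of the Map3k kind, had 2 control peaks (the stronger above 70.2% of the list) and none in BKO. *Mink1*, a relative of *Map4k4*, had 3 peaks in BKO only, the strongest above 27.8% of the list. *Ptpn7*, a tyrosine phosphatase of blood cells that acts on ERK and p38, had 3 peaks in BKO only (56.3%).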
